A study of Homo sapiens with 9 samples.

Results

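The solute carrier (SLC) genes expressed in THP-1 cells were described across a control, bacterial lipopolysaccharide (LPS) and LPS with PD, which the series title gives as panaxadiol, a plant triterpenoid. Members were the rows of the deposited table whose symbol is SLC, a family number, A and a member number, whose FPKM (fragments per kilobase of gene length, scaled to the fragment total of the library) reached 1 in 3 or more of the 9 libraries. The rows SLC2A1, SLC2A3, SLC16A3, SLC7A11, SLC40A1, SLC11A1 and SLC11A2 were left out by name. This gave 160 members of 34643 rows in the table, out of 297 rows with such a symbol. Of the others, 7 were left out by name and 130 stayed below the level, 12 of them at 0 in all 9 libraries. The FPKM level chose the members, so levels are given as a description.

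Solute carriers move nutrients, ions, vitamins and metabolites across the plasma membrane and the membranes of mitochondria, lysosomes, the endoplasmic reticulum (ER) and the Golgi, without hydrolysing ATP themselves. Members of one family share ancestry, and they often differ in substrate, in membrane and in direction of transport. In macrophages they are known for supplying glucose, glutamine and arginine to activated cells, for withholding metals such as zinc, iron and manganese from microbes, and for linking lysosomal amino acids to the growth kinase mTORC1.

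THP-1 is a human monocytic leukaemia line, wild type per the labels, and PMA, the phorbol ester used here, moves it towards a macrophage state. Every group had been given PMA at 500 nM for 4 h, followed by 24 h of rest. The groups were LPS+PD (replicates 7 to 9: LPS at 1 µg/mL and PD at 10 µM), LPS (replicates 4 to 6: LPS at 1 µg/mL) and control (replicates 1 to 3: neither agent). No group received PD alone. How long the agents were left on the cells and in which vehicle is not given in the sources used here. It is also not labelled whether the libraries of a group came from separate cultures, so p-values measure a spread between libraries that may be technical only. All results come from 1 cell line in bulk, where fewer cells of a kind and less RNA per cell cannot be told apart.

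The deposited FPKM values implied a depth of 16974366 to 17875279 fragments for LPS+PD libraries, 16218767 to 17666864 fragments for the LPS group and 15641324 to 17615367 fragments for the control group. Correlations between libraries of one group were 0.989 to 0.991 across genes. Of 14 monocyte and macrophage marker genes 13 reached the level of the filter, with SPI1, the master regulator of the myeloid lineage, at means of 219 FPKM in LPS+PD, 266 FPKM in LPS and 135 FPKM in control. The macrophage marker CD68 was at 0.216, 0.237 and 0.128 FPKM in LPS+PD, LPS and control, and it shares 81.7% of its exon bases with other genes on the same strand. CD14, the LPS co-receptor, was at means of 10.1 FPKM in LPS+PD, 35.05 FPKM in LPS and 0.466 FPKM in control. With LPS 7 of the 13 markers were called higher and 5 lower (limma, adjusted p below 0.05), against 26.4% and 39.7% of all tested genes. Their sum with CD68 was 2365 to 2396 FPKM in LPS+PD libraries, 2127.6 to 2166.1 FPKM in LPS libraries and 3479.5 to 3717 FPKM in control libraries. Among those lower were CTSG and PRTN3, granule proteases of myeloid cells, CTSG at means of 248 FPKM in LPS+PD, 143 FPKM in LPS and 1360.4 FPKM in control, and PRTN3 at means of 392 FPKM in LPS+PD, 268 FPKM in LPS and 1281 FPKM in control. All 9 epithelial markers stayed below the level of the filter in the libraries. Among fibroblast, endothelial and lymphocyte markers, PECAM1 and NKG7 were the most abundant, at means of 47.1 and 20.7 FPKM in LPS+PD, 54.3 and 30.6 FPKM in LPS, and 34.7 and 17.5 FPKM in control. The T-cell marker CD3E was at 0 in all LPS+PD and LPS libraries. The 6 lymphocyte markers with a row summed to 22.4 to 24.4 FPKM in LPS+PD, 33.7 to 35.6 FPKM in LPS and 16.8 to 23.2 FPKM in control, and the 7 fibroblast and endothelial ones to 47.4 to 48.2, 54.2 to 56.8 and 34.5 to 35.6 FPKM in LPS+PD, LPS and control. All 3 marker sums differed between LPS and control libraries, and their part in the results below was not tested.

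To show the sequence context of members that changed most or that carry a searched motif, the 250 bases before an annotated start are printed 5′ to 3′ in the direction of transcription, from RefSeq on GRCh38.p14, all on the minus strand. The motifs were searched on both strands: the core of the interferon-stimulated response element (GAAA, any 2 bases, GAAA), the core of the metal response element bound by the zinc sensor MTF1 (TGCACNC or TGCGCNC, N being any base), an amino acid response element (TGATG, any base, AA) and an NF-kB site (GGGA, any 2 bases, TTCC). Capitals mark the match. It is a metal response core in the windows of SLC2A6 (chr9:133479100-133479349), SLC30A1 (chr1:211579162-211579411) and SLC45A3 (chr1:205680510-205680759), and the interferon core in that of SLC7A7 (chr14:22819792-22820041). SLC7A7 has 3 windows, of which another holds a metal response core and the third holds no match. SLC43A2 has 3 as well, 1 with a metal response core, and the one printed (chr17:1628835-1629084) holds no match.
SLC2A6: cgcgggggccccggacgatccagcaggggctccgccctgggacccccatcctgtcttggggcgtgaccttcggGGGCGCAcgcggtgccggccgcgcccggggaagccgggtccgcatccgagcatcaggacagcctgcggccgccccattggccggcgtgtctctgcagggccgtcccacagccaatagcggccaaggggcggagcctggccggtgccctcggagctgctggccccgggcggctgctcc
SLC7A7: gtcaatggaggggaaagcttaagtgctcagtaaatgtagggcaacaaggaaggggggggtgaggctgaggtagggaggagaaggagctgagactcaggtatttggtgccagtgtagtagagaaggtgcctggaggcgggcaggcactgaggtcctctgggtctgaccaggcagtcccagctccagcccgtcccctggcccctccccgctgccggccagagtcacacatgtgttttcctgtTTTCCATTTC
SLC43A2: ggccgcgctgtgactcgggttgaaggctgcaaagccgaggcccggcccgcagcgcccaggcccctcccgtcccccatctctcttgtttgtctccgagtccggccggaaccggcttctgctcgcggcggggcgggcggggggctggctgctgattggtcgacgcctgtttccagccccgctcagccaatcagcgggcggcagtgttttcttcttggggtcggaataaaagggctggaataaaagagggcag
SLC30A1: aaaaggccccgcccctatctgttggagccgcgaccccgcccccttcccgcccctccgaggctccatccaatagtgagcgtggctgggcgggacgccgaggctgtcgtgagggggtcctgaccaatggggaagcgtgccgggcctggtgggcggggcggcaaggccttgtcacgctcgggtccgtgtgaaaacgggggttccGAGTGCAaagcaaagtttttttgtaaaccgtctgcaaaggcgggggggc
SLC45A3: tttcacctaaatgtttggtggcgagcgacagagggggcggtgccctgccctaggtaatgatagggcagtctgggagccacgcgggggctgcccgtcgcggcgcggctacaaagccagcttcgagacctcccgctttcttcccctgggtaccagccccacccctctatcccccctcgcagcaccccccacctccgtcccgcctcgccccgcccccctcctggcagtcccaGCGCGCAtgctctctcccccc
Windows were found for 131 of the 160 members, 195 windows in all. The metal response core was present in 29.7% of the members' windows and in 24.8% of all 35116 windows. The interferon core was present in 2.05% of the members' windows and 3.02% of all windows, the amino acid response element in 2.56% and 3.14%, and the NF-kB site in 0.513% and 1.40%. In the windows of members called higher with LPS, as defined further on, the metal response core was present in 29.5%, and in those of members called lower in 28%. A match is a description of letters and was not tested as a binding site.

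Levels of the members spanned a wide range, with a lowest mean of 0.475 FPKM over the 9 libraries. Of the 160 members, 7 had a mean of at least 50 FPKM, 55 of at least 10 FPKM and 30 of under 2 FPKM, with a median of 5.96 FPKM. SLC25A5, the ADP/ATP exchanger of the inner mitochondrial membrane, was at 225, 223 and 228 FPKM in LPS+PD libraries, 206, 191 and 195 FPKM in LPS libraries and 188, 189.5 and 180.5 FPKM in control libraries. SLC25A1, the citrate exporter of mitochondria, was at 82.0, 86.3 and 90.0 FPKM in LPS+PD libraries, 69.3, 64.2 and 67.5 FPKM in LPS libraries and 115, 134 and 119 FPKM in control libraries. The zinc importer SLC39A1 was at 68.4, 67.3 and 72.4 FPKM in LPS+PD libraries, 83.2, 85.2 and 88.4 FPKM in LPS libraries and 48.1, 48.3 and 47.6 FPKM in control libraries, although 69.1% of its exon bases are shared with other annotated genes, so its level is uncertain. Mitochondrial carriers and zinc carriers were prominent among the abundant members, and they included SLC25A3, the mitochondrial phosphate carrier, and SLC39A7, which releases zinc from the ER. SLC39A7 was at 65.6, 60.5 and 57.8 FPKM in LPS+PD libraries, 58.9, 55.4 and 58.0 FPKM in LPS libraries and 50.8, 48.9 and 47.3 FPKM in control libraries, and LPS was above control (log2 fold change 0.22 ± 0.05, limma adjusted p = 0.00247). Together the members held 0.726 to 0.751% of the summed FPKM with LPS+PD, 0.714 to 0.734% with LPS alone and 0.697 to 0.707% in the control group.

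The members came from 42 families and 23 chromosomes. By role, 37 were mitochondrial carriers, 23 carried ions or protons across other membranes, 16 were zinc carriers of the SLC30 and SLC39 families and 16 carried amino acids at the plasma membrane. Sugar carriers, carriers of nucleosides, vitamins and choline, and carriers of the ER, Golgi and secretory vesicles numbered 10 each, and 9 were lysosomal or endosomal. Monocarboxylate carriers, organic ion carriers and the fatty acid and bile acid families numbered 7 each, copper, haem and magnesium carriers 5, and amine and osmolyte carriers 3. In 135 members every library reached an FPKM of 1. In 4 members (SLC16A8, SLC25A4, SLC2A10 and SLC4A3) the control libraries alone reached it, so these had to be low in the other groups, and all 4 are among the members called lower with LPS further on. SLC1A3, SLC7A2, SLC8A1, SLC9A9 and SLC18A1 reached it in no control library. They met the rule only through libraries given LPS, where they are high, which limits their rises with LPS further on. SLC46A3, SLC22A5, SLC25A35 and SLC25A42, among others, reached an FPKM of 1 in no LPS library. They met the rule through the other groups, where they are higher, which limits tests of LPS against control and of LPS+PD against LPS. Just inside the limit were SLC25A4, SLC4A3 and SLC18A1, with the third highest value at 1.06, 1.07 and 1.10 FPKM. Just outside were SLC41A2 and SLC2A11, with 0.970 and 0.945 FPKM. The copper carrier SLC31A2 was below the level and was not tested. A median of under 100 fragments per library stood behind 17 members. Of the 160, 88 share no exon base with another annotated gene and 5 share at least 50%.

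LPS against control asks how the LPS stimulus changed the carriers. SLC2A6, a hexose transporter of intracellular membranes, was the largest rise, at 13.4-fold. Exporters or exchangers of large neutral and cationic amino acids (SLC43A2, SLC7A7), the glutamate importer SLC1A3, the lysosomal peptide and histidine carrier SLC15A3 and the zinc carriers SLC39A13, SLC39A8 and SLC30A1 also rose. The choline carrier SLC44A1, the zinc importer SLC39A10 and the mitochondrial dicarboxylate carrier SLC25A10 fell. So did 5 of 7 organic ion carriers and 5 of 7 carriers of the fatty acid and bile acid families. Mitochondrial carriers were divided, with 17 of 37 called lower and 13 higher, or 45.9% and 35.1%. Of all tested genes 39.7% were called lower and 26.4% higher. Calls were made with limma on log2(FPKM + 1) at a Benjamini-Hochberg adjusted p below 0.05 over 13692 genes. Of the 160 members 62 were called higher and 65 lower, or 79.4% in all, against 66.2% of all tested genes, of which 26.4% were called higher and 39.7% lower. At least a 2-fold change on the log2(FPKM + 1) scale was seen in 15 members higher and 10 lower, against 6.47% and 5.26% of all genes. These counts include members that met the rule only through the libraries where they were high. The libraries of the groups did not overlap for 133 members, or 83.1%, against 69.8% of all tested genes. The median log2 fold change was 0.00 over the members and -0.08 over all genes. Under median-of-ratios scaling the split was 70 members higher and 58 lower.

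**Figure D1:**
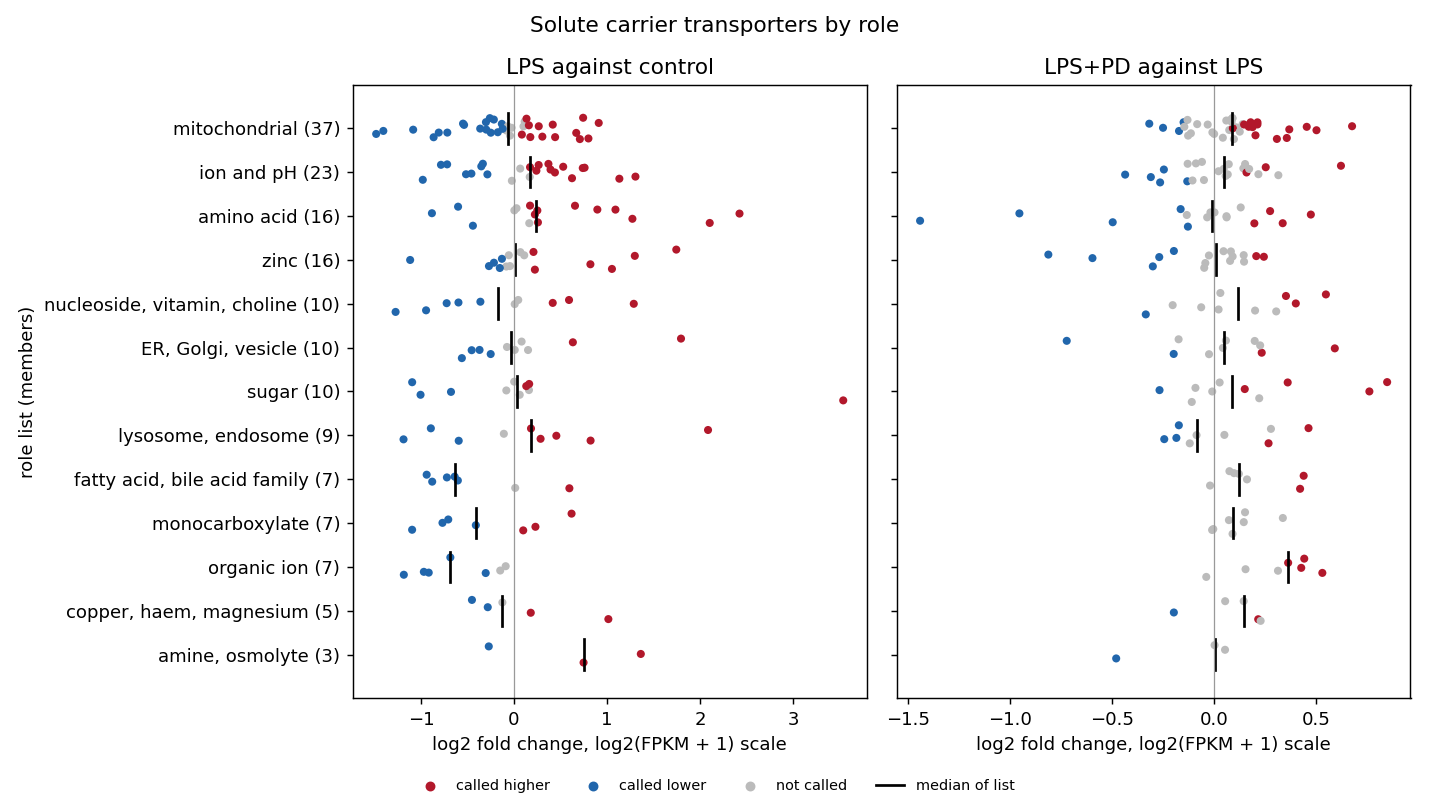
Log2 fold change of each of the 160 members on the log2(FPKM + 1) scale, by role, for LPS+PD against LPS (right) and LPS against control (left), with the number of members in brackets; each point is a gene, its colour gives the limma call at an adjusted p below 0.05, and the black bar is the median of the role. Amino acid and lysosomal carriers reach log2 fold changes above 2 with LPS, and sugar carriers reach 3.54. Of 7 organic ion carriers 5 are called lower with LPS, against 39.7% of all tested genes. Both panels use the same LPS libraries.

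Among the 10 sugar carriers 3 were called higher and 3 lower with LPS, against 26.4% and 39.7% of all tested genes. SLC2A6 (GLUT6, chr9:133471095-133479137) was at 66.0, 64.4 and 69.9 FPKM in LPS+PD libraries, 78.5, 83.3 and 79.6 FPKM in LPS libraries and 5.61, 6.16 and 6.25 FPKM in control libraries. No library of either treated group came near the control libraries, and the LPS rise was 13.4-fold (log2 fold change 3.54 ± 0.05, limma adjusted p = 1.43e-11). SLC2A9, a urate transporter of the same family, was at 6.26, 5.70 and 6.13 FPKM in LPS+PD libraries, 3.26, 3.11 and 3.05 FPKM in LPS libraries and 7.91, 7.73 and 7.89 FPKM in control libraries. Its LPS libraries were the lowest, without overlap (log2 fold change -1.09 ± 0.04, limma adjusted p = 2.51e-08). SLC2A5, the fructose transporter, was at 21.7, 21.7 and 21.5 FPKM in LPS+PD libraries, 19.9, 19.0 and 19.3 FPKM in LPS libraries and 31.8, 30.8 and 32.3 FPKM in control libraries, with LPS at 0.613 times the control mean (log2 fold change -0.68 ± 0.03, limma adjusted p = 3.83e-08). SLC45A3 (prostein, named for its expression in prostate) was at 6.26, 7.02 and 7.59 FPKM in LPS+PD libraries, 3.59, 3.59 and 3.05 FPKM in LPS libraries and 2.99, 2.94 and 2.89 FPKM in control libraries. LPS against control did not pass the test for SLC45A3 in the main analysis (log2 fold change 0.16 ± 0.07, limma adjusted p = 0.079), although over the alternatives it passed without LPS replicate 6 and under both other scalings (adjusted p 0.011 to 0.206 over the 18 alternatives). The summed level of the sugar carriers was 126 to 133 FPKM in LPS+PD libraries, 133 to 136 FPKM in LPS libraries and 75.0 to 78.5 FPKM in control libraries, most of the difference being SLC2A6.

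Of the 16 amino acid carriers 10 were called higher and 3 lower with LPS, against 26.4% and 39.7% of all tested genes. The median log2 fold change was 0.24. The 10 include SLC1A3 and SLC7A2, which met the rule only through libraries given LPS. SLC43A2 (LAT4, a facilitative transporter of large neutral amino acids, chr17:1569267-1628886) was at 2.87, 3.21 and 2.73 FPKM in LPS+PD libraries, 8.96, 10.2 and 9.92 FPKM in LPS libraries and 0.910, 1.08 and 0.973 FPKM in control libraries. The 3 groups were fully separated, with LPS 9.79-fold above control (log2 fold change 2.42 ± 0.07, limma adjusted p = 1.82e-09). Its relative SLC43A1 (LAT3), which carries similar amino acids, was at 10.5, 10.5 and 10.7 FPKM in LPS+PD libraries, 7.56, 6.71 and 7.79 FPKM in LPS libraries and 14.3, 14.6 and 14.2 FPKM in control libraries. It moved the other way, to 0.511 times the control mean with LPS (log2 fold change -0.88 ± 0.05, limma adjusted p = 2e-07). SLC7A7 (y+LAT1, chr14:22773222-22829820), which exchanges cationic for neutral amino acids and is mutated in lysinuric protein intolerance, was at 3.09, 3.52 and 3.12 FPKM in LPS+PD libraries, 7.20, 7.18 and 7.26 FPKM in LPS libraries and 2.38, 2.55 and 2.27 FPKM in control libraries. The LPS libraries stood apart from both other groups, 3.01-fold above control (log2 fold change 1.27 ± 0.06, limma adjusted p = 3.99e-08). SLC7A6 (y+LAT2), a close relative of SLC7A7 named here after its values were seen, had a log2 fold change of -0.44 ± 0.07 (limma adjusted p = 0.00034), with 55.6% of its exon bases shared with an antisense gene.

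SLC1A3 (EAAT1), a glutamate importer best known from glia, was at 6.29, 6.98 and 6.88 FPKM in LPS+PD libraries, 7.14, 6.52 and 6.44 FPKM in LPS libraries and 0.988, 0.561 and 0.844 FPKM in control libraries. Both treated groups were far above control and overlapped each other, and LPS was 8.40-fold above control (log2 fold change 2.10 ± 0.09, limma adjusted p = 2.94e-08). SLC1A3 met the rule only through libraries given LPS, which limits this test. SLC7A2 (CAT2), an importer of arginine and other cationic amino acids, was at 1.57, 1.65 and 1.74 FPKM in LPS+PD libraries, 2.89, 2.67 and 2.68 FPKM in LPS libraries and 0.768, 0.776 and 0.724 FPKM in control libraries, without overlap (log2 fold change 1.09 ± 0.06, limma adjusted p = 3.46e-07). The same limit holds for SLC7A2, which met the rule only through libraries given LPS. SLC7A5 (LAT1), which imports large neutral amino acids, was at 26.4, 29.003 and 29.6 FPKM in LPS+PD libraries, 30.7, 30.7 and 32.0 FPKM in LPS libraries and 15.6, 18.3 and 15.1 FPKM in control libraries and rose with LPS (log2 fold change 0.90 ± 0.07, limma adjusted p = 2e-06). Its heavy chain SLC3A2 (4F2hc), which brings SLC7A5, SLC7A6 and SLC7A7 to the cell surface, was at 32.1, 34.9 and 32.7 FPKM in LPS+PD libraries, 33.1, 34.7 and 34.3 FPKM in LPS libraries and 20.5, 22.6 and 20.7 FPKM in control libraries and also rose (log2 fold change 0.66 ± 0.04, limma adjusted p = 9.76e-07). The glutamine importer SLC1A5 (ASCT2) was at 44.1, 47.5 and 49.1 FPKM in LPS+PD libraries, 45.7, 45.0 and 43.9 FPKM in LPS libraries and 45.2, 46.9 and 42.2 FPKM in control libraries. Its 3 groups overlapped, with a log2 fold change of 0.00 ± 0.05 (limma adjusted p = 0.951) for LPS against control, and 23.8% of its exon bases lie opposite another gene. Carriers known as targets of ATF4, the transcription factor of the amino acid response, numbered 6 among the members. Of these 5 were called higher (SLC7A5, SLC3A2, SLC7A1, SLC1A4 and SLC38A2), against 26.4% of all tested genes, and SLC1A5 was not called. SLC6A9, also on the list, was below the level and was not tested. The list was chosen with results of these data known and is no independent evidence of direction. SLC7A1 (CAT1), the widespread arginine importer, rose only slightly (log2 fold change 0.17 ± 0.05, limma adjusted p = 0.0159), and its adjusted p was 0.00143 to 0.0952 over the 18 alternatives, the highest with quantile normalization.

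**Figure D2:**
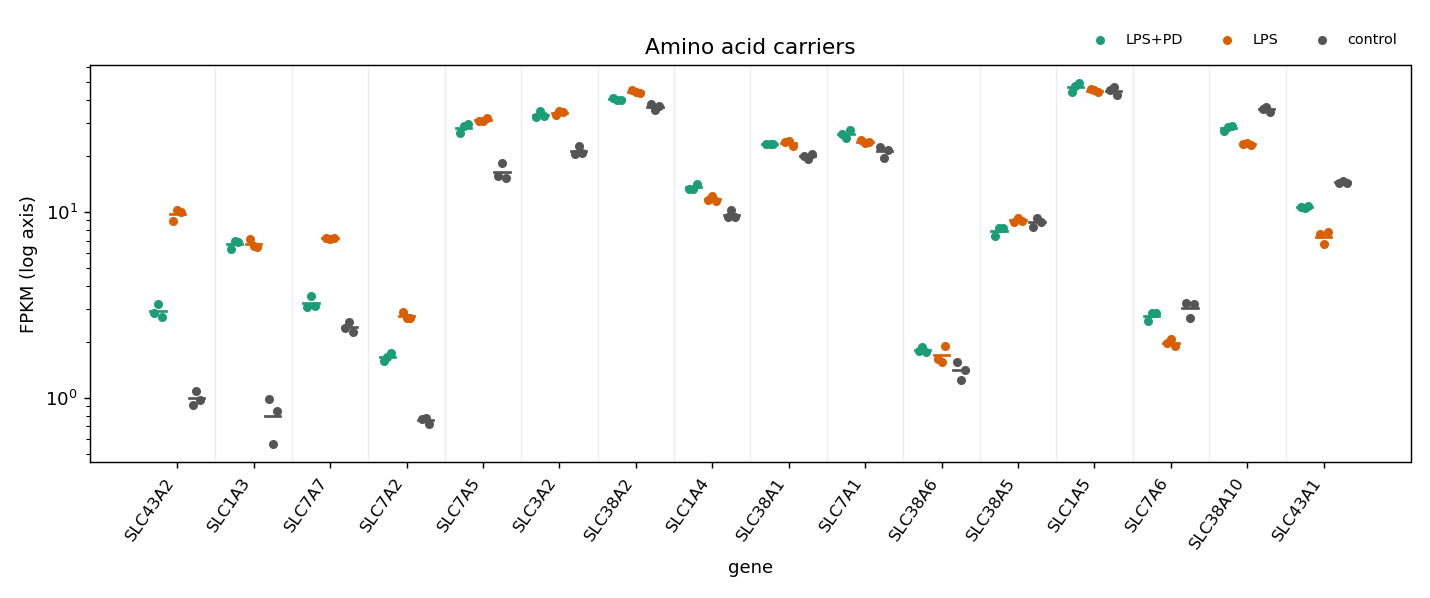
FPKM on a log axis of the 16 amino acid carriers in LPS+PD, LPS and control, from left to right within a gene; each point is a library and each bar the mean of 3. SLC43A2, SLC7A7 and SLC7A2 peak in LPS libraries, SLC1A3 is high in both treated groups, the SLC1A5 libraries of the 3 groups overlap, and SLC43A1 is highest in control.

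Of the 16 zinc carriers 6 were called higher and 5 lower, which became 7 and 3 under median-of-ratios scaling. In the main analysis 68.75% of them were called, against 66.2% of all tested genes, with a median log2 fold change of 0.01. SLC39 proteins move zinc into the cytosol and SLC30 proteins move it out. SLC39A13 (ZIP13), a zinc carrier of Golgi and vesicle membranes, was at 11.1, 10.8 and 10.0 FPKM in LPS+PD libraries, 18.9, 19.998 and 19.4 FPKM in LPS libraries and 5.21, 5.15 and 4.94 FPKM in control libraries. Its 3 groups were separate and LPS was 3.81-fold above control (log2 fold change 1.75 ± 0.04, limma adjusted p = 9.85e-10). SLC39A8 (ZIP8, chr4:102251041-102431258), which imports zinc and manganese and is a known NF-kB target in macrophages, was at 16.5, 16.4 and 17.3 FPKM in LPS+PD libraries, 26.1, 26.0 and 25.3 FPKM in LPS libraries and 9.59, 10.1 and 10.0 FPKM in control libraries. It showed the same order (log2 fold change 1.30 ± 0.03, limma adjusted p = 1.08e-09). SLC30A1 (ZnT1), the zinc exporter of the plasma membrane, whose window above holds a metal response core, was at 16.9, 16.4 and 17.2 FPKM in LPS+PD libraries, 19.6, 18.7 and 20.004 FPKM in LPS libraries and 9.65, 8.30 and 8.60 FPKM in control libraries (log2 fold change 1.05 ± 0.05, limma adjusted p = 9.81e-08). Its control libraries were well below both treated groups. SLC39A10 (ZIP10), a plasma membrane importer, was at 3.81, 3.72 and 3.84 FPKM in LPS+PD libraries, 3.49, 3.68 and 2.84 FPKM in LPS libraries and 8.90, 8.38 and 7.87 FPKM in control libraries, and LPS fell to 0.398 times the control mean (log2 fold change -1.12 ± 0.07, limma adjusted p = 8.53e-07). SLC39A1 rose (log2 fold change 0.82 ± 0.03, limma adjusted p = 2.58e-08), within the limit given above on its shared exons. SLC39A14 (ZIP14), an importer of zinc, iron and manganese, was at 18.1, 16.9 and 19.0 FPKM in LPS+PD libraries, 17.5, 16.3 and 17.1 FPKM in LPS libraries and 18.3, 16.97 and 17.7 FPKM in control libraries. Its groups overlapped throughout (log2 fold change -0.06 ± 0.05, limma adjusted p = 0.336). In the same libraries the zinc-binding metallothionein MT2A, which is no member, had means of 167 FPKM in LPS+PD, 242 FPKM in LPS and 9.33 FPKM in control.

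Of 5 carriers of copper, haem and magnesium 2 were called higher and 2 lower, against 26.4% and 39.7% of all tested genes. SLC31A1 (CTR1), the copper importer, was at 10.3, 9.39 and 9.64 FPKM in LPS+PD libraries, 11.2, 11.2 and 11.7 FPKM in LPS libraries and 5.33, 4.75 and 5.28 FPKM in control libraries. Both treated groups lay above control (log2 fold change 1.01 ± 0.05, limma adjusted p = 1.01e-07). SLC41A3, of a magnesium carrier family, and SLC49A3, of a family with haem carriers, fell (log2 fold change -0.28 ± 0.06, limma adjusted p = 0.00174 for SLC41A3, and log2 fold change -0.45 ± 0.12, limma adjusted p = 0.00755 for SLC49A3).

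In the 37 mitochondrial carriers of the SLC25 family the direction was divided, with 13 called higher and 17 lower with LPS, or 15 and 13 under median-of-ratios scaling. The main analysis called 26.4% of all tested genes higher and 39.7% lower. The summed level of the 37 carriers was 902 to 913 FPKM in LPS+PD libraries, 810.1 to 844 FPKM in LPS libraries and 977 to 1026 FPKM in control libraries. Most of the difference between LPS and control came from a single member that is not reported by name here. The sum therefore does not describe the carriers as a class. SLC25A10, which exchanges malate and succinate for phosphate, was at 5.08, 5.19 and 4.33 FPKM in LPS+PD libraries, 2.85, 2.43 and 2.71 FPKM in LPS libraries and 8.95, 10.3 and 8.52 FPKM in control libraries. LPS was at 0.288 times the control mean, without overlap (log2 fold change -1.48 ± 0.08, limma adjusted p = 2.17e-07), and 46.6% of the exon bases are shared with an overlapping annotated gene. SLC25A1 fell to 0.545 times the control mean (log2 fold change -0.86 ± 0.06, limma adjusted p = 9.67e-07). SLC25A23, a carrier of ATP-Mg and phosphate, was at 8.73, 8.32 and 9.02 FPKM in LPS+PD libraries, 6.22, 5.98 and 5.33 FPKM in LPS libraries and 13.9, 13.5 and 13.1 FPKM in control libraries and fell as well (log2 fold change -1.08 ± 0.05, limma adjusted p = 1.06e-07). Rising members included SLC25A28 (mitoferrin 2, an iron importer), at 29.6, 27.6 and 29.9 FPKM in LPS+PD libraries, 33.4, 32.5 and 32.5 FPKM in LPS libraries and 20.9, 19.5 and 20.4 FPKM in control libraries (log2 fold change 0.67 ± 0.04, limma adjusted p = 2.78e-07). SLC25A40, a relative of the glutathione importer SLC25A39, was at 15.7, 16.6 and 16.05 FPKM in LPS+PD libraries, 18.0, 17.7 and 18.3 FPKM in LPS libraries and 10.3, 9.59 and 9.80 FPKM in control libraries (log2 fold change 0.80 ± 0.04, limma adjusted p = 5.08e-08). SLC25A39 itself was at 32.2, 30.4 and 30.6 FPKM in LPS+PD libraries, 29.5, 28.8 and 28.5 FPKM in LPS libraries and 30.2, 31.6 and 32.9 FPKM in control libraries, with a log2 fold change of -0.12 ± 0.04 whose adjusted p of 0.0163 became 0.0615 without control replicate 3 and 0.0513 without LPS replicate 6, within 0.000902 to 0.37 over the 18 alternatives.

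The ADP/ATP and phosphate carriers serve ATP synthesis. SLC25A5, at the levels given above, had a log2 fold change of 0.08 ± 0.03 (limma adjusted p = 0.0452). Its adjusted p became 0.068 without control replicate 1, 0.152 without control replicate 3, 0.153 without LPS replicate 4, 0.0673 without LPS replicate 6, 0.0559 without LPS+PD replicate 7, 0.0612 without LPS+PD replicate 8 and 0.0571 without LPS+PD replicate 9, and it was 0.00153 to 0.153 over the 18 alternatives. The call of SLC25A5 was lost in 11 of these. They include no filter on low values, only the compared groups, no intensity trend and array weights. SLC25A3 was at 60.5, 59.3 and 58.6 FPKM in LPS+PD libraries, 55.7, 55.9 and 55.5 FPKM in LPS libraries and 60.6, 62.4 and 60.3 FPKM in control libraries. LPS was 0.912 times the control mean (log2 fold change -0.13 ± 0.02, limma adjusted p = 0.000984), but this call did not hold with median-of-ratios scaling (adjusted p 1.29e-05 to 0.148 over the 18 alternatives). SLC25A4, the muscle-type ADP/ATP exchanger, stayed near 1 FPKM, at 0.889, 0.936 and 0.892 FPKM in LPS+PD libraries, 0.689, 0.759 and 0.789 FPKM in LPS libraries and 1.21, 1.06 and 1.19 FPKM in control libraries. SLC25A37 (mitoferrin 1), the iron importer of erythroid mitochondria, was at 10.9, 11.03 and 11.4 FPKM in LPS+PD libraries, 10.3, 9.45 and 9.54 FPKM in LPS libraries and 12.0, 11.2 and 11.3 FPKM in control libraries (log2 fold change -0.22 ± 0.04, limma adjusted p = 0.00178).

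**Figure D3:**
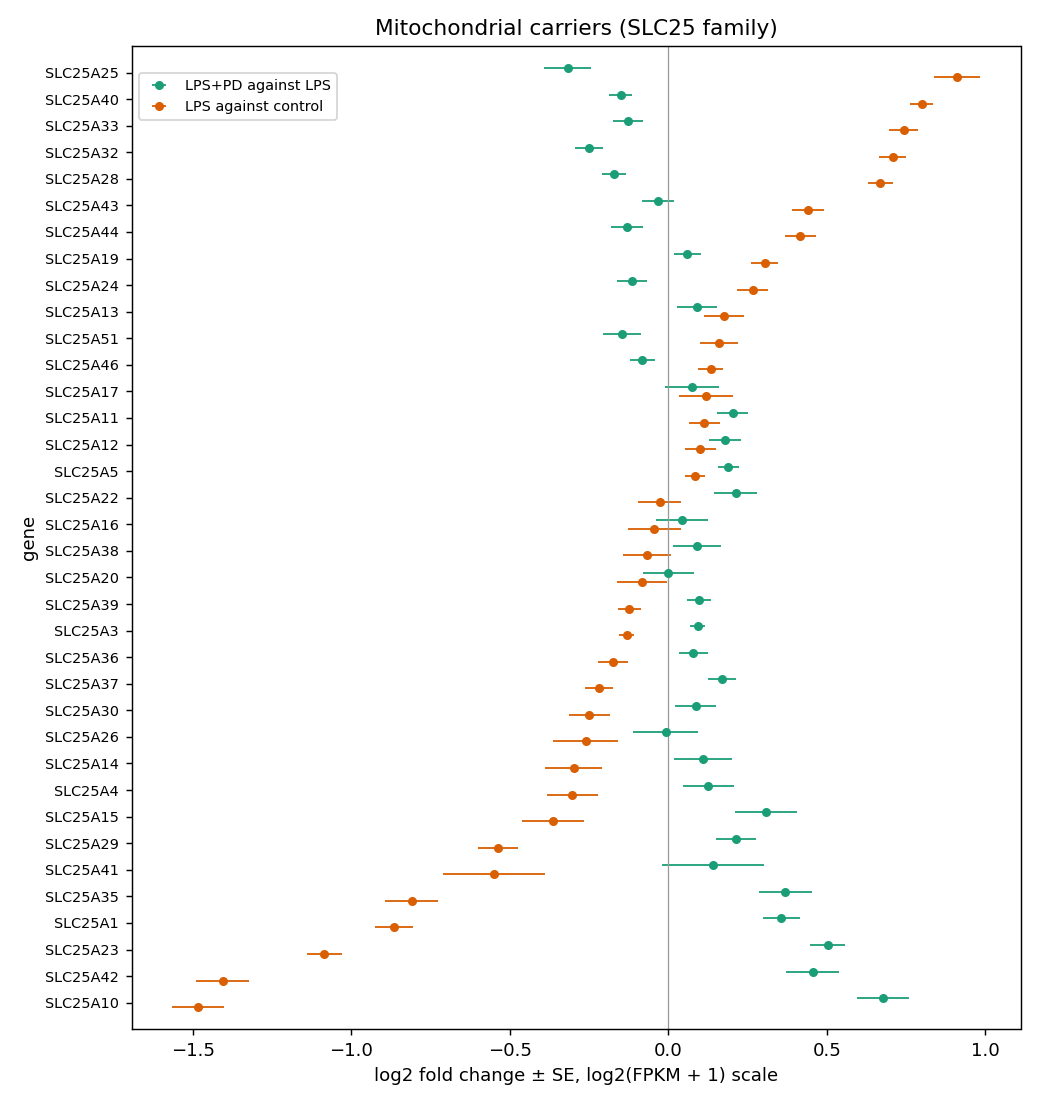
Log2 fold change with its SE on the log2(FPKM + 1) scale for 36 of the 37 mitochondrial carriers, LPS+PD against LPS (green) and LPS against control (orange), ordered by LPS against control; each point is a gene. SLC25A10 has the lowest value with LPS, at -1.48, and SLC25A40 is at 0.80. The 2 comparisons share the LPS libraries, so the colours are not independent of each other.

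Of the 9 lysosomal and endosomal carriers 5 were called higher and 3 lower, against 26.4% and 39.7% of all tested genes. SLC15A3 (PHT2, chr11:60937084-60952530) was at 10.98, 12.1 and 12.5 FPKM in LPS+PD libraries, 13.5, 14.4 and 14.8 FPKM in LPS libraries and 2.33, 2.91 and 2.54 FPKM in control libraries. Both treated groups lay well above control, with LPS 5.49-fold higher (log2 fold change 2.09 ± 0.07, limma adjusted p = 5.01e-09). SLC15A4 (PHT1), which carries histidine and peptides and is needed for signalling by endosomal Toll-like receptors, was at 4.02, 3.99 and 4.16 FPKM in LPS+PD libraries, 4.33, 4.34 and 4.81 FPKM in LPS libraries and 3.73, 3.59 and 4.20 FPKM in control libraries. Its log2 fold change of 0.18 ± 0.06 had an adjusted p of 0.0228, which became 0.0671 without control replicate 1, 0.0759 without control replicate 2 and 0.0841 without LPS replicate 6 and was 0.00513 to 0.0841 over the 17 alternatives. SLC17A5 (sialin), which exports sialic acid from lysosomes, was at 11.9, 13.2 and 12.5 FPKM in LPS+PD libraries, 10.2, 10.8 and 9.73 FPKM in LPS libraries and 18.9, 21.0 and 19.8 FPKM in control libraries and fell (log2 fold change -0.89 ± 0.05, limma adjusted p = 3.52e-07). SLC46A3, a lysosomal carrier, was at 1.48, 1.40 and 1.204 FPKM in LPS+PD libraries, 0.750, 0.698 and 0.686 FPKM in LPS libraries and 3.05, 2.62 and 3.03 FPKM in control libraries, with LPS at 0.245 times the control mean (log2 fold change -1.19 ± 0.08, limma adjusted p = 7.6e-07). No LPS library reached an FPKM of 1 for SLC46A3, which limits this test. SLC38A9, the lysosomal arginine sensor of mTORC1, was at 1.98, 2.14 and 1.96 FPKM in LPS+PD libraries, 2.10, 2.28 and 2.25 FPKM in LPS libraries and 2.31, 2.57 and 2.52 FPKM in control libraries and was not called (log2 fold change -0.11 ± 0.06, limma adjusted p = 0.136).

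Carriers that previous work describes as induced by interferon or NF-kB numbered 6 (SLC15A3, SLC25A28, SLC39A8, SLC39A14, SLC2A6 and SLC7A2). Of these 5 were called higher with LPS, against 26.4% of all tested genes, and SLC39A14 was not called. SLC7A2, among the 5, met the rule only through libraries given LPS. The median log2 fold change was 1.195, beside -0.08 over all genes. The list was assembled with results of these data known and is no independent evidence of direction.

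Organic ion and peptide carriers were low in LPS libraries: 5 of 7 were called lower, against 39.7% of all tested genes. The others were not called, and the median log2 fold change was -0.68. SLC22A5, among the 7, reached an FPKM of 1 in no LPS library. SLC22A15, a carrier of zwitterions, was at 9.52, 9.79 and 8.91 FPKM in LPS+PD libraries, 6.73, 6.59 and 6.63 FPKM in LPS libraries and 16.8, 15.9 and 16.5 FPKM in control libraries. SLC22A16, a carnitine and organic cation carrier that also takes up doxorubicin, was at 12.3, 11.9 and 11.9 FPKM in LPS+PD libraries, 8.33, 7.76 and 7.91 FPKM in LPS libraries and 16.4, 16.4 and 17.02 FPKM in control libraries. For both genes the groups were separate, with LPS lowest (log2 fold change -1.18 ± 0.04, limma adjusted p = 7.5e-09 for SLC22A15, and log2 fold change -0.97 ± 0.04, limma adjusted p = 1.23e-08 for SLC22A16). SLC15A2 (PEPT2), a proton-coupled peptide importer, was at 2.75, 2.87 and 3.10 FPKM in LPS+PD libraries, 2.19, 2.21 and 1.73 FPKM in LPS libraries and 4.55, 4.61 and 5.03 FPKM in control libraries (log2 fold change -0.92 ± 0.08, limma adjusted p = 3.86e-06). Their summed level was 47.9 to 51.4 FPKM in LPS+PD libraries, 36.3 to 40.2 FPKM in LPS libraries and 63.3 to 67.2 FPKM in control libraries, with no overlap between groups.

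In the fatty acid (SLC27) and bile acid (SLC10) families 5 of 7 were called lower and 1 higher, against 39.7% and 26.4% of all tested genes. The median log2 fold change was -0.64. SLC27A3, an acyl-CoA synthetase of the fatty acid transport protein family, was at 3.55, 4.15 and 4.11 FPKM in LPS+PD libraries, 2.83, 2.58 and 2.50 FPKM in LPS libraries and 6.24, 6.14 and 5.54 FPKM in control libraries. SLC27A2, its relative that activates very long chain fatty acids, was at 2.72, 2.67 and 2.56 FPKM in LPS+PD libraries, 2.55, 2.19 and 2.07 FPKM in LPS libraries and 4.72, 5.25 and 5.04 FPKM in control libraries. Both fell (log2 fold change -0.94 ± 0.07, limma adjusted p = 1.45e-06 for SLC27A3, and log2 fold change -0.88 ± 0.07, limma adjusted p = 1.89e-06 for SLC27A2). SLC27A4, named after its values were seen, was the member called higher (log2 fold change 0.60 ± 0.10, limma adjusted p = 0.00054). SLC10A4, an orphan of the bile acid family known from synaptic vesicles, was at 15.0, 15.1 and 17.9 FPKM in LPS+PD libraries, 12.6, 10.6 and 11.9 FPKM in LPS libraries and 18.2, 21.7 and 19.8 FPKM in control libraries, and its relative SLC10A3 was at 7.25, 7.63 and 8.07 FPKM in LPS+PD libraries, 6.73, 6.63 and 7.49 FPKM in LPS libraries and 11.4, 12.4 and 10.3 FPKM in control libraries. Both fell with LPS (log2 fold change -0.72 ± 0.09, limma adjusted p = 5.73e-05 for SLC10A4, and log2 fold change -0.64 ± 0.07, limma adjusted p = 3.03e-05 for SLC10A3).

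Carriers of nucleosides, vitamins and choline numbered 10, of which 3 were called higher and 5 lower, against 26.4% and 39.7% of all tested genes. SLC44A1 (CTL1), the choline transporter that feeds phosphatidylcholine synthesis, was at 12.4, 13.3 and 13.6 FPKM in LPS+PD libraries, 10.2, 9.80 and 10.1 FPKM in LPS libraries and 26.1, 25.4 and 25.5 FPKM in control libraries. The groups were separate, with LPS at 0.391 times the control mean (log2 fold change -1.27 ± 0.04, limma adjusted p = 2.58e-09). SLC29A1 (ENT1), the equilibrative nucleoside transporter, was at 30.002, 30.8 and 31.3 FPKM in LPS+PD libraries, 22.4, 19.9 and 19.8 FPKM in LPS libraries and 33.6, 36.3 and 34.5 FPKM in control libraries and fell (log2 fold change -0.72 ± 0.05, limma adjusted p = 1.1e-06). SLC43A3, a purine nucleobase transporter despite its place in an amino acid carrier family, was at 32.7, 33.9 and 33.6 FPKM in LPS+PD libraries, 41.6, 41.8 and 43.7 FPKM in LPS libraries and 16.4, 16.5 and 17.3 FPKM in control libraries. It rose 2.53-fold (log2 fold change 1.29 ± 0.03, limma adjusted p = 9.75e-10), with 29.9% of its exon bases shared with an overlapping gene.

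Of the 7 monocarboxylate carriers 3 were called higher and 4 lower with LPS, where 66.2% of all tested genes were called. SLC16A8, which met the rule through its control libraries alone, is one of those called lower. SLC16A1 (MCT1), the carrier of lactate and pyruvate, was at 20.04, 21.2 and 21.1 FPKM in LPS+PD libraries, 20.4, 19.9 and 18.9 FPKM in LPS libraries and 18.6, 17.8 and 18.5 FPKM in control libraries. Its log2 fold change was 0.10 ± 0.04 (limma adjusted p = 0.0422). This adjusted p became 0.0589 without control replicate 1, 0.121 without control replicate 2, 0.0644 without control replicate 3, 0.134 without LPS replicate 4, 0.104 without LPS replicate 5, 0.0534 without LPS+PD replicate 8 and 0.0546 without LPS+PD replicate 9, and it was 0.00109 to 0.231 over the 18 alternatives. The call of SLC16A1 was lost in 11 of these. They include no filter on low values, quantile normalization, only the compared groups and no intensity trend. SLC16A8 (MCT3), the lactate carrier of the retinal pigment epithelium, reached 1 FPKM in control libraries alone, at 0.381, 0.669 and 0.662 FPKM in LPS+PD libraries, 0.360, 0.389 and 0.476 FPKM in LPS libraries and 2.27, 1.77 and 2.00 FPKM in control libraries. SLC16A5 was at 1.76, 2.46 and 2.13 FPKM in LPS+PD libraries, 2.13, 2.14 and 2.06 FPKM in LPS libraries and 3.84, 4.43 and 3.97 FPKM in control libraries and fell (log2 fold change -0.71 ± 0.09, limma adjusted p = 5.9e-05). SLC16A13, a lactate carrier, was at 1.58, 1.81 and 1.48 FPKM in LPS+PD libraries, 0.814, 0.910 and 1.57 FPKM in LPS libraries and 2.28, 2.39 and 2.95 FPKM in control libraries and fell too (log2 fold change -0.77 ± 0.13, limma adjusted p = 0.000718). SLC16A9, a carnitine and creatine carrier, rose (log2 fold change 0.62 ± 0.07, limma adjusted p = 5.77e-05), at 3.01, 3.33 and 3.04 FPKM in LPS+PD libraries, 3.12, 2.55 and 2.97 FPKM in LPS libraries and 1.63, 1.56 and 1.38 FPKM in control libraries.

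Ion and pH carriers numbered 23, with 12 called higher and 8 lower, against 26.4% and 39.7% of all tested genes. Among the 23, SLC8A1 and SLC9A9 met the rule only through libraries given LPS, and SLC4A3 only through control libraries. With a filter at an FPKM of 5, 9 were tested, of which 7 were called higher and 0 lower. SLC8A1 (NCX1), the sodium/calcium exchanger, was at 2.93, 3.17 and 3.12 FPKM in LPS+PD libraries, 3.20, 3.39 and 3.14 FPKM in LPS libraries and 0.733, 0.665 and 0.752 FPKM in control libraries. Both treated groups were above control, by 4.53-fold with LPS (log2 fold change 1.31 ± 0.06, limma adjusted p = 4.99e-08). This test is limited because SLC8A1 met the rule only through libraries given LPS. SLC20A1 (PiT-1), a phosphate importer, was at 17.9, 18.1 and 18.9 FPKM in LPS+PD libraries, 21.9, 22.2 and 22.4 FPKM in LPS libraries and 13.0, 13.3 and 12.3 FPKM in control libraries (log2 fold change 0.74 ± 0.04, limma adjusted p = 9.98e-08). SLC4A7, a sodium bicarbonate cotransporter that supports phagosome acidification, was at 4.64, 4.67 and 4.43 FPKM in LPS+PD libraries, 5.06, 5.15 and 5.08 FPKM in LPS libraries and 2.78, 2.41 and 2.63 FPKM in control libraries (log2 fold change 0.76 ± 0.05, limma adjusted p = 7.77e-07). SLC12A7 (KCC4), a potassium chloride cotransporter, was at 2.51, 2.72 and 3.28 FPKM in LPS+PD libraries, 1.61, 1.38 and 1.46 FPKM in LPS libraries and 3.36, 3.19 and 3.28 FPKM in control libraries and fell (log2 fold change -0.79 ± 0.08, limma adjusted p = 1.63e-05).

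In the ER, Golgi and vesicle group 2 of 10 were called higher and 4 lower, or 4 and 4 under median-of-ratios scaling. The main analysis called 26.4% of all tested genes higher and 39.7% lower. SLC37A2, a sugar phosphate carrier of the ER known from macrophages, was at 5.08, 6.13 and 5.82 FPKM in LPS+PD libraries, 9.52, 10.7 and 9.76 FPKM in LPS libraries and 2.31, 1.97 and 2.24 FPKM in control libraries. Its groups were separate, with LPS 4.61-fold above control (log2 fold change 1.80 ± 0.07, limma adjusted p = 2.45e-08). Its relative SLC37A1 was at 3.85, 3.40 and 3.52 FPKM in LPS+PD libraries, 2.17, 1.89 and 2.07 FPKM in LPS libraries and 3.16, 3.30 and 3.05 FPKM in control libraries and fell (log2 fold change -0.46 ± 0.06, limma adjusted p = 0.000122). SLC35A4, of the nucleotide sugar family, was at 26.9, 26.6 and 28.0 FPKM in LPS+PD libraries, 31.6, 30.1 and 32.2 FPKM in LPS libraries and 19.4, 20.1 and 19.8 FPKM in control libraries and rose (log2 fold change 0.63 ± 0.03, limma adjusted p = 1.75e-07). Of the amine and osmolyte carriers, SLC6A6, the taurine importer, was at 6.47, 6.91 and 7.39 FPKM in LPS+PD libraries, 10.1, 10.2 and 9.82 FPKM in LPS libraries and 3.45, 3.32 and 3.11 FPKM in control libraries. Its LPS rise was 3.05-fold (log2 fold change 1.36 ± 0.05, limma adjusted p = 1.51e-08). SLC18A1 (VMAT1), a vesicular monoamine transporter, was at 1.10, 0.934 and 1.29 FPKM in LPS+PD libraries, 1.13, 1.10 and 1.07 FPKM in LPS libraries and 0.131, 0.294 and 0.334 FPKM in control libraries, near the limit of the rule in both treated groups. The creatine importer SLC6A8 fell slightly (log2 fold change -0.27 ± 0.07, limma adjusted p = 0.00826; adjusted p 0.00285 to 0.0649 over the 17 alternatives, the highest with quantile normalization).

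**Figure D4:**
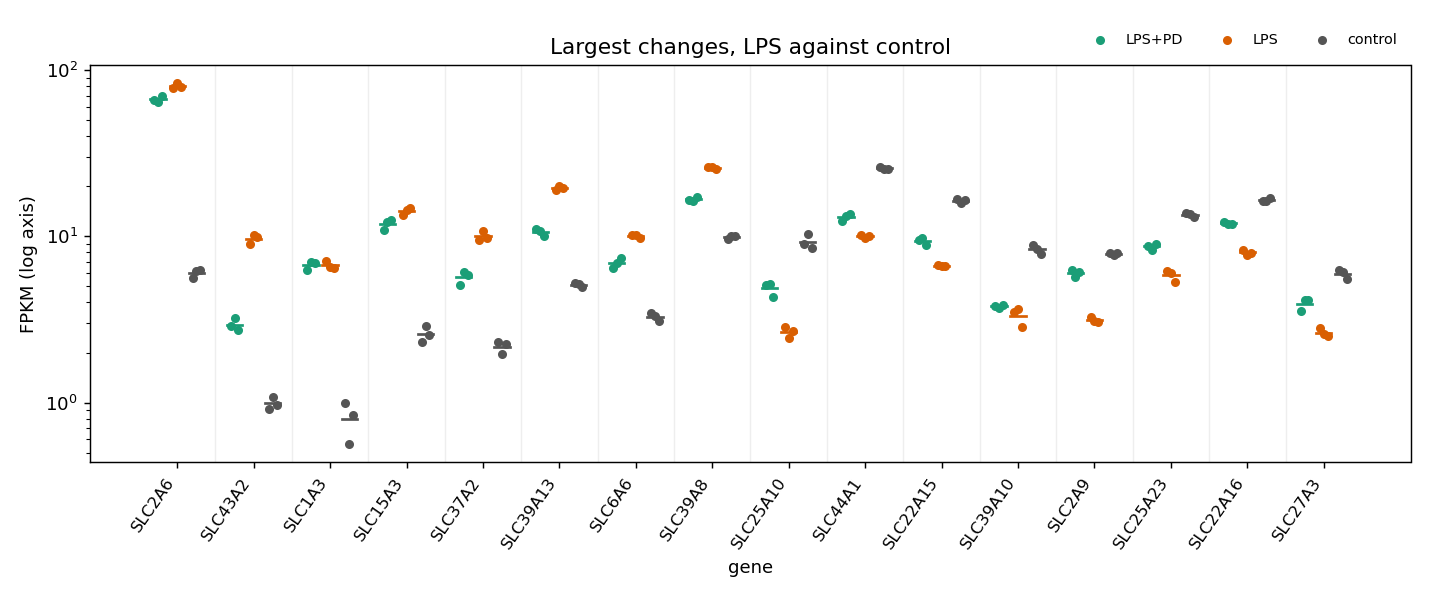
FPKM on a log axis for the 8 largest rises and 8 largest falls of LPS against control among members with a mean of at least 5 FPKM in one of these groups, with LPS+PD, LPS and control from left to right within a gene; each point is a library and each bar the mean of 3. SLC2A6 has 78.5 to 83.3 FPKM in LPS libraries and 5.61 to 6.25 FPKM in control libraries, and SLC44A1 has 9.80 to 10.2 FPKM in LPS libraries and 25.4 to 26.1 FPKM in control libraries.

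LPS+PD against LPS asks how adding PD changed the carriers of LPS-treated cells. SLC43A2, SLC7A7, SLC39A13, SLC37A2, SLC39A8 and SLC6A6 were lower with PD, and SLC45A3, SLC2A9, SLC25A10, SLC12A7, SLC37A1, SLC29A1 and SLC22A16 were higher. Of the 160 members 41 were called higher and 28 lower, or 43.1%, against 36.8% of all tested genes, of which 23.8% were called higher and 13% lower. Under median-of-ratios scaling the split was 32 higher and 35 lower among the members, and 2154 and 2424 among all genes, where the main analysis called 3259 and 1778. The direction of small changes in this comparison therefore depended on the scaling. A fall of at least 2-fold on the log2(FPKM + 1) scale was seen in 1 member, SLC43A2, against 1.43% of all genes. The highest log2 fold change, that of SLC45A3, was 0.85, while 0.256% of all genes rose by at least 2-fold. The libraries did not overlap for 93 members (58.1%), against 50.4% of all genes. The median log2 fold change was 0.07 over the members and 0.07 over all genes. LPS+PD against LPS shares the LPS libraries with the comparison before it, so the 2 are not independent.

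Amino acid carriers held the largest falls, with 4 of 16 called higher and 5 lower, against 23.8% and 13% of all tested genes. SLC43A2 averaged 2.93 ± 0.244 FPKM in LPS+PD libraries and 9.69 ± 0.652 FPKM in LPS libraries (SD, n = 3 each). The LPS+PD mean was 0.303 times the LPS mean (log2 fold change -1.44 ± 0.07, limma adjusted p = 7.76e-07). SLC7A7 averaged 3.24 ± 0.245 FPKM in LPS+PD libraries and 7.21 ± 0.0411 FPKM in LPS libraries (log2 fold change -0.95 ± 0.06, limma adjusted p = 2.47e-06). SLC7A2 was also lower (log2 fold change -0.50 ± 0.06, limma adjusted p = 0.000328), while SLC43A1 was higher (log2 fold change 0.48 ± 0.05, limma adjusted p = 7.12e-05). For SLC1A3, the difference had an estimate of 0.00 ± 0.09 (limma adjusted p = 0.984), with overlapping libraries. SLC7A5 and SLC3A2 had log2 fold changes of -0.13 ± 0.07 and -0.03 ± 0.04 that did not pass the test (limma adjusted p = 0.155 and 0.602). For SLC7A5 the adjusted p was 0.0334 to 0.403 over the 18 alternatives, below the threshold without control replicate 2 and with voom.

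Of 16 zinc carriers 2 were called higher and 5 lower, against 23.8% and 13% of all tested genes. SLC39A13 averaged 10.7 ± 0.583 FPKM in LPS+PD libraries and 19.4 ± 0.529 FPKM in LPS libraries, 0.548 times (log2 fold change -0.81 ± 0.04, limma adjusted p = 1.76e-06). SLC39A8 averaged 16.7 ± 0.494 FPKM in LPS+PD libraries and 25.8 ± 0.400 FPKM in LPS libraries (log2 fold change -0.60 ± 0.03, limma adjusted p = 2.06e-06). Both remained above their control libraries. SLC39A1 was lower as well (log2 fold change -0.30 ± 0.03, limma adjusted p = 0.000132). The exporter SLC30A1 had a smaller difference, -0.20 ± 0.05, with an adjusted p of 0.0161 that became 0.058 without LPS replicate 6 and 0.0575 without LPS+PD replicate 8, within 0.00105 to 0.058 over the 18 alternatives. The copper importer SLC31A1 was alike, at -0.20 ± 0.05 with an adjusted p of 0.0138, which became 0.0509 without LPS replicate 6 and 0.0529 without LPS+PD replicate 8, within 0.00295 to 0.0529 over the 18 alternatives. SLC39A10, low in both groups, did not pass the test (log2 fold change 0.15 ± 0.07, limma adjusted p = 0.155).

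Among mitochondrial carriers 14 of 37 were called higher and 4 lower with PD, a split that turned to 7 and 9 under median-of-ratios scaling. In the main analysis 23.8% of all tested genes were called higher and 13% lower. SLC25A10 averaged 4.87 ± 0.472 FPKM in LPS+PD libraries and 2.66 ± 0.213 FPKM in LPS libraries, a ratio of 1.83 (log2 fold change 0.68 ± 0.08, limma adjusted p = 0.000211). SLC25A23 and SLC25A1 were also higher (log2 fold change 0.50 ± 0.05, limma adjusted p = 0.000103 for SLC25A23, and log2 fold change 0.36 ± 0.06, limma adjusted p = 0.00135 for SLC25A1). SLC25A5 was 1.14 times the LPS mean (log2 fold change 0.19 ± 0.03, limma adjusted p = 0.00178). SLC25A3 was higher in the main analysis (log2 fold change 0.09 ± 0.02, limma adjusted p = 0.0145), but its adjusted p was 0.00161 to 0.531 over the 18 alternatives, the highest under median-of-ratios scaling. The mitoferrins differed in sign, with SLC25A28 lower (log2 fold change -0.17 ± 0.04, limma adjusted p = 0.00717) and SLC25A37 higher (log2 fold change 0.17 ± 0.04, limma adjusted p = 0.0139). The adjusted p of SLC25A37 became 0.0527 without LPS replicate 5 and 0.051 without LPS+PD replicate 9, within 0.00301 to 0.0757 over the 18 alternatives.

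Organic ion carriers had 4 of 7 called higher and the others not called, a count that was the same under median-of-ratios scaling. The main analysis called 23.8% of all tested genes higher and 13% lower. SLC22A16 averaged 12.0 ± 0.214 FPKM in LPS+PD libraries and 8.00 ± 0.295 FPKM in LPS libraries (log2 fold change 0.53 ± 0.04, limma adjusted p = 5.98e-06). SLC22A15 averaged 9.41 ± 0.451 FPKM in LPS+PD libraries and 6.65 ± 0.0715 FPKM in LPS libraries (log2 fold change 0.44 ± 0.04, limma adjusted p = 4e-05). The nucleoside transporter SLC29A1 averaged 30.7 ± 0.672 FPKM in LPS+PD libraries and 20.7 ± 1.51 FPKM in LPS libraries (log2 fold change 0.55 ± 0.05, limma adjusted p = 3.7e-05). The choline transporter SLC44A1 was 1.31 times the LPS mean (log2 fold change 0.35 ± 0.04, limma adjusted p = 9.77e-05), and SLC43A3 was 0.788 times (log2 fold change -0.33 ± 0.03, limma adjusted p = 5.58e-05). Of the fatty acid and bile acid families 2 of 7 were called higher, SLC27A3 (log2 fold change 0.44 ± 0.07, limma adjusted p = 0.000891) and SLC10A4 (log2 fold change 0.42 ± 0.09, limma adjusted p = 0.00451).

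Of 10 sugar carriers 4 were called higher and 1 lower, against 23.8% and 13% of all tested genes. SLC45A3 averaged 6.96 ± 0.671 FPKM in LPS+PD libraries and 3.41 ± 0.314 FPKM in LPS libraries, 2.04-fold higher (log2 fold change 0.85 ± 0.07, limma adjusted p = 2.62e-05). All 3 LPS+PD libraries were above all LPS and control libraries. SLC2A9 averaged 6.03 ± 0.292 FPKM in LPS+PD libraries and 3.14 ± 0.109 FPKM in LPS libraries (log2 fold change 0.76 ± 0.04, limma adjusted p = 2.52e-06). SLC2A6 was 0.829 times the LPS mean (log2 fold change -0.27 ± 0.05, limma adjusted p = 0.00165) and stayed 11.1 times its control mean. In the ER and vesicle group the relatives SLC37A2 and SLC37A1 again moved apart, SLC37A2 being lower (log2 fold change -0.72 ± 0.07, limma adjusted p = 6.88e-05) and SLC37A1 higher (log2 fold change 0.59 ± 0.06, limma adjusted p = 7.78e-05).

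Lysosomal carriers had 2 of 9 called higher, SLC46A3 (log2 fold change 0.46 ± 0.08, limma adjusted p = 0.00155) and SLC17A5 (log2 fold change 0.27 ± 0.05, limma adjusted p = 0.00374), and 3 called lower. The rise of SLC46A3 is limited, because it met the rule without any LPS library. Over all tested genes 23.8% were called higher and 13% lower. SLC15A3 was lower, at -0.24 ± 0.07, with an adjusted p of 0.0207 that became 0.0609 without LPS replicate 5, 0.0718 without LPS replicate 6 and 0.0729 without LPS+PD replicate 7, within 0.000409 to 0.0729 over the 18 alternatives. SLC15A4 and SLC38A9 were not called, with log2 fold changes of -0.12 ± 0.06 and -0.09 ± 0.06 (limma adjusted p = 0.156 and 0.301). Of 23 ion and pH carriers 3 were called higher and 5 lower, or 1 and 6 under median-of-ratios scaling. SLC12A7 was 1.91 times the LPS mean (log2 fold change 0.62 ± 0.08, limma adjusted p = 0.00028), SLC20A1 was lower (log2 fold change -0.26 ± 0.04, limma adjusted p = 0.000495) and so was the sodium/proton exchanger SLC9A8 (log2 fold change -0.31 ± 0.05, limma adjusted p = 0.00175), which was at 5.77, 5.92 and 5.86 FPKM in LPS+PD libraries, 7.40, 7.50 and 7.56 FPKM in LPS libraries and 5.73, 5.76 and 4.93 FPKM in control libraries. SLC8A1 was not called (log2 fold change -0.06 ± 0.06, limma adjusted p = 0.474). None of the 7 monocarboxylate carriers was called, against the 36.8% called among all genes. Limma gave 1 of them an unadjusted p under 0.05, SLC16A13, which voom on recovered fragments called (main analysis: log2 fold change 0.34 ± 0.13, limma adjusted p = 0.0797). SLC6A6, the taurine importer, averaged 6.92 ± 0.459 FPKM in LPS+PD libraries and 10.0 ± 0.193 FPKM in LPS libraries (log2 fold change -0.48 ± 0.05, limma adjusted p = 0.000105).

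**Figure D5:**
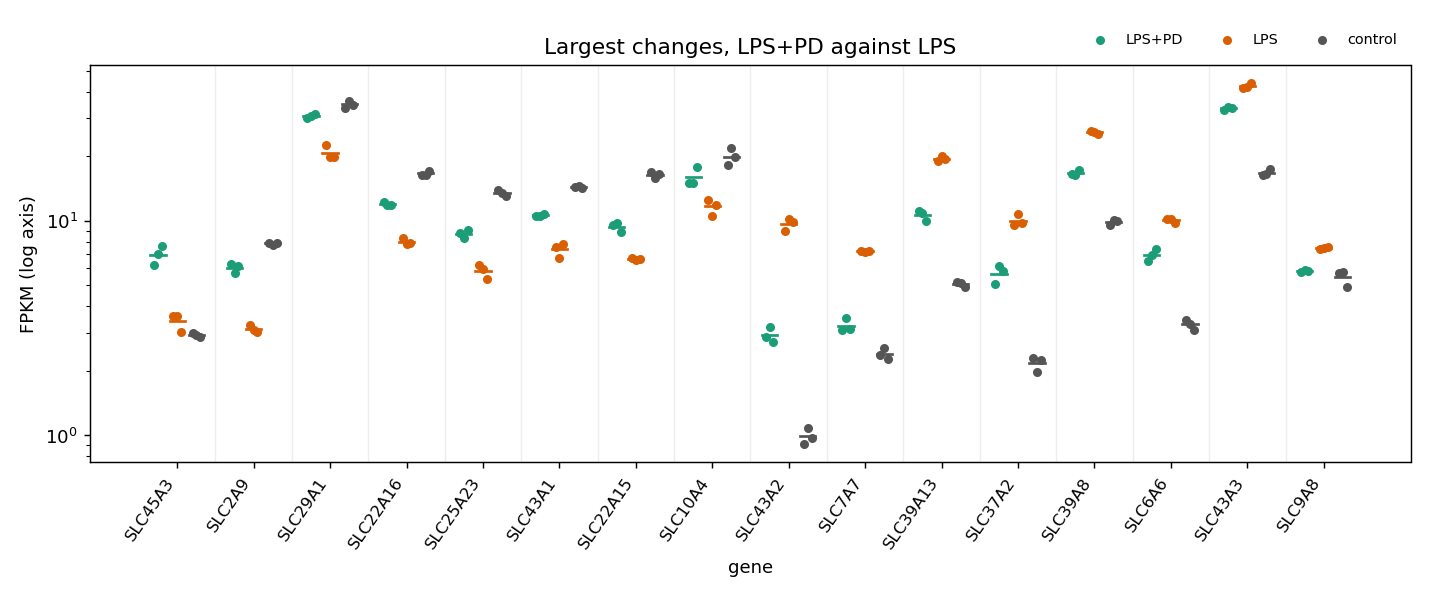
FPKM on a log axis for the 8 largest rises and 8 largest falls of LPS+PD against LPS among members with a mean of at least 5 FPKM in one of these groups, with LPS+PD, LPS and control from left to right within a gene; each point is a library and each bar the mean of 3. SLC45A3 is highest in LPS+PD libraries, at 6.26 to 7.59 FPKM, and SLC43A2 has 2.73 to 3.21 FPKM in LPS+PD libraries and 8.96 to 10.2 FPKM in LPS libraries.

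LPS+PD against control shows where the carriers stood with both agents, using libraries that also enter the comparisons above. SLC2A6 remained the largest rise, and SLC1A3, SLC15A3, SLC8A1, SLC37A2 and SLC45A3 were also clearly above control. Of the 160 members 63 were called higher and 44 lower (66.9%), against 54.7% of all tested genes, of which 26% were called higher and 28.7% lower. A rise of at least 2-fold on the log2(FPKM + 1) scale was seen in 6 members, against 3.89% of all genes. The lowest log2 fold change, that of SLC39A10, was -0.97, while 2.06% of all genes fell by at least 2-fold. The libraries did not overlap for 119 members (74.4%), against 61.6% of all genes, and the median log2 fold change was 0.03 over the members and -0.02 over all genes.

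SLC2A6 was 11.1 times the control mean (log2 fold change 3.27 ± 0.05, limma adjusted p = 4.42e-11), and SLC1A3 8.42 times (log2 fold change 2.11 ± 0.09, limma adjusted p = 5.79e-08). The rise of SLC1A3 is limited by its having met the rule only through libraries given LPS. SLC15A3 was 4.58 times the control mean (log2 fold change 1.84 ± 0.07, limma adjusted p = 2.51e-08). SLC45A3 was 2.37 times the control mean (log2 fold change 1.01 ± 0.07, limma adjusted p = 2.62e-06), where LPS alone gave 1.16 times. The lowest values relative to control were those of SLC39A10 (log2 fold change -0.97 ± 0.07, limma adjusted p = 4.12e-06), SLC44A1 (log2 fold change -0.92 ± 0.04, limma adjusted p = 5.24e-08), SLC25A10 (log2 fold change -0.80 ± 0.08, limma adjusted p = 2.85e-05) and SLC22A15 (log2 fold change -0.74 ± 0.04, limma adjusted p = 4.23e-07), among members with a mean of at least 5 FPKM. The largest changes of the earlier comparisons that remained called included SLC43A2 (log2 fold change 0.98 ± 0.07, limma adjusted p = 2.01e-06) and SLC7A7 (log2 fold change 0.32 ± 0.06, limma adjusted p = 0.000973). SLC29A1 was 0.882 times the control mean, with an adjusted p of 0.0152 that became 0.0541 without control replicate 2 and 0.0505 without LPS+PD replicate 7, within 0.00137 to 0.0541 over the 18 alternatives. SLC12A7, SLC37A1, SLC25A3 and SLC25A37 were not called against control, with log2 fold changes of -0.16 ± 0.08, 0.14 ± 0.06, -0.04 ± 0.02 and -0.05 ± 0.04 (limma adjusted p = 0.112, 0.0836, 0.213 and 0.407). For SLC12A7 it passed without LPS+PD replicate 9 and for SLC37A1 and SLC25A3 with quantile normalization. The ATF4 targets had 5 of 6 called higher, against 26% of all tested genes, and SLC1A5 again was not called (log2 fold change 0.07 ± 0.05, limma adjusted p = 0.273). One of the 5, the glutamine carrier SLC38A2, had an adjusted p of 0.00676 that became 0.345 with quantile normalization (0.00222 to 0.345 over the 18 alternatives). The interferon and NF-kB list had 5 of 6 called higher against control, where 26% of all tested genes were. Against LPS 5 of 6 were called lower, where 13% of all tested genes were. One of these 5, SLC15A3, lost its call with single libraries left out, as given above. The list was assembled with results of these data known, so these counts are no independent evidence of direction.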

How the data were processed

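Poly(A)-enriched RNA was sequenced from 9 THP-1 libraries, 3 per group, grouped by their titles. The authors deposited 1 table of FPKM values for 34643 genes, and HISAT2, StringTie, bcl2fastq and FastQC, with the build GRCh38, are named without versions by the submitters' processing notes. How fragments in shared bases, near-identical copies or antisense genes were counted is not given in the sources used here, so such levels are uncertain. Fragments were recovered from the deposited FPKM values with the exon length of GENCODE release 29: 97.2 to 97.7% of values came out whole within 0.05.

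The test was limma (version 3.58.1, R 4.3.3). It was run on log2(FPKM + 1) for the 13692 genes that reached an FPKM of 1 in 3 or more libraries, as 1 model of 3 group means with an intensity trend and Benjamini-Hochberg adjustment within each comparison. A gene was called at an adjusted p below 0.05. Errors after ± are SE for log2 fold changes and SD for means; log2 fold changes on this scale understate the change of low genes, and fold values are ratios of mean FPKM. The script was tested on simulated data. Exon sharing was taken from GENCODE release 29, and coordinates of genes are those of the deposited table on GRCh38. Libraries of one group differed by more than sampling noise (chi-square per degree of freedom 2.28 to 3.31).

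The members, the role lists and the other lists were chosen with earlier results of these data known. Named members were the 8 largest rises and falls of LPS against control and of LPS+PD against LPS and the 4 largest of LPS+PD against control, among called members without overlap and with a mean of at least 5 FPKM in one group, the 10 most abundant, up to 3 per role by p, the short lists in full and 10 fixed by name. One member was counted and is not reported by name here. Some fixed names were not analysed here. The design text also names A549, a lung line, while all 9 libraries analysed here are titled THP-1.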

Additional observations from a re-analysis of the deposited data

How the results depend on the processing

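The counts of members called higher or lower and of all genes called were recomputed with a pseudocount of 0.1, no filter on low values, a filter at an FPKM of 5, median-of-ratios and quantile scaling, only the compared groups, no intensity trend, array weights, an adjusted p below 0.01 and each library left out. Limma voom on recovered fragments was chosen after seeing the data. The filter at an FPKM of 5, which tested 96 members and 7807 genes, gave 30 members lower and 5929 genes called for LPS against control, and 21 members lower for LPS+PD against control. An adjusted p below 0.01 gave 17 members lower and 3254 genes called for LPS+PD against LPS. The others of these counts were within 1.5 times the reported ones. Counts per role were recomputed with both other scalings, the filter at an FPKM of 5 and voom only. For LPS against control, this filter left 9 ion and pH carriers, with 7 higher and 0 lower, against 12 and 8 of 23 as reported. For LPS+PD against LPS, mitochondrial carriers had 7 higher and 9 lower under median-of-ratios scaling, against 14 and 4 as reported, and 3 ion and pH carriers called higher became 1 under it and 6 with voom. With 1 library left out, 55 to 60 members were higher and 60 to 65 lower for LPS against control, 35 to 46 and 22 to 30 for LPS+PD against LPS, and 58 to 64 and 35 to 40 for LPS+PD against control. Voom called 61 members higher and 65 lower, 49 and 32, and 65 and 49 in these comparisons. Of the 66 named members, 54 of 62 calls for LPS against control, 34 of 42 for LPS+PD against LPS and 48 of 54 for LPS+PD against control held under every alternative, and no direction of a called member reversed. No paired analysis was possible because the replicate numbers run from 1 to 9 and the groups share none. Depth limits the 17 members with a median under 100 fragments, and shared exons limit the members named with them.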

Other observations

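Carrier proteins that carry another kind of symbol were looked at beside the members. Of 46 such genes with a row 40 were tested, and with LPS 20 were called higher and 11 lower (limma, adjusted p below 0.05), against 66.2% called among all genes. MFSD2A, a carrier of lysophosphatidylcholine lipids, was at 131, 137 and 141 FPKM in LPS+PD libraries, 168, 167 and 169.9 FPKM in LPS libraries and 65.2, 67.1 and 63.5 FPKM in control libraries. It was higher with LPS (log2 fold change 1.35 ± 0.03, limma adjusted p = 5.68e-10) and lower with LPS+PD than with LPS (log2 fold change -0.30 ± 0.03, limma adjusted p = 9.24e-05). SPNS3, of the sphingosine phosphate carrier family, was at 3.90, 4.72 and 3.72 FPKM in LPS+PD libraries, 1.43, 1.16 and 0.735 FPKM in LPS libraries and 12.5, 13.8 and 14.6 FPKM in control libraries. It had the lowest value in LPS (log2 fold change -2.80 ± 0.12, limma adjusted p = 4.13e-08) and was higher with LPS+PD than with LPS (log2 fold change 1.28 ± 0.12, limma adjusted p = 4.9e-05). MPC2, a subunit of the mitochondrial pyruvate carrier, was at 9.54, 10.9 and 9.37 FPKM in LPS+PD libraries, 6.50, 6.05 and 6.45 FPKM in LPS libraries and 15.6, 16.4 and 16.9 FPKM in control libraries (log2 fold change -1.24 ± 0.06, limma adjusted p = 7.05e-08 for LPS against control). MPC1, another subunit of this carrier, was named after its values were seen and moved the other way. It was at 48.2, 51.2 and 55.03 FPKM in LPS+PD libraries, 41.8, 42.2 and 41.1 FPKM in LPS libraries and 30.4, 28.6 and 30.8 FPKM in control libraries. MPC1 was called higher with LPS (log2 fold change 0.46 ± 0.05, limma adjusted p = 1.8e-05). UNC93B1, which escorts Toll-like receptors to endosomes, was at 92.5, 92.4 and 95.9 FPKM in LPS+PD libraries, 117, 114 and 115 FPKM in LPS libraries and 62.5, 67.6 and 60.01 FPKM in control libraries (log2 fold change 0.86 ± 0.04, limma adjusted p = 7.05e-08 for LPS against control). UCP2, an SLC25 family protein named as an uncoupling protein, was lower with LPS+PD than with LPS (log2 fold change -0.46 ± 0.03, limma adjusted p = 1.78e-06). For LPS+PD against LPS 10 of the 40 were called higher and 6 lower, against 36.8% among all genes.

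Partners, sensors and linked enzymes of the carriers numbered 35 with a row, of which 32 were tested. With LPS 9 were called higher and 14 lower, against 26.4% and 39.7% of all tested genes. With LPS+PD against LPS 14 were called higher and 5 lower, against 23.8% and 13% of all tested genes. MT2A, a metallothionein that binds zinc, was at 171, 156 and 173 FPKM in LPS+PD libraries, 229, 230.4 and 266 FPKM in LPS libraries and 9.09, 8.76 and 10.2 FPKM in control libraries (log2 fold change 4.55 ± 0.07, limma adjusted p = 4.06e-11 for LPS against control). MTF1, the zinc-sensing transcription factor, was at 16.3, 16.5 and 16.9 FPKM in LPS+PD libraries, 21.2, 22.3 and 22.3 FPKM in LPS libraries and 5.45, 5.50 and 5.51 FPKM in control libraries (log2 fold change 1.82 ± 0.03, limma adjusted p = 9.47e-11 for LPS against control). TXNIP, a glucose-responsive arrestin that draws glucose transporters off the cell surface, was at 93.1, 94.3 and 90.5 FPKM in LPS+PD libraries, 79.5, 80.4 and 77.8 FPKM in LPS libraries and 215, 211 and 211 FPKM in control libraries and fell with LPS (log2 fold change -1.41 ± 0.02, limma adjusted p = 7.86e-11). EMB (embigin), a chaperone of monocarboxylate carriers, was at 119, 118 and 118 FPKM in LPS+PD libraries, 72.0, 66.6 and 63.7 FPKM in LPS libraries and 184, 179 and 184 FPKM in control libraries, with LPS lowest and LPS+PD above LPS (log2 fold change 0.81 ± 0.04, limma adjusted p = 9.28e-07). CXorf21 (TASL), the adaptor that SLC15A4 holds at the endosome, was at 102, 98.7 and 99.0 FPKM in LPS+PD libraries, 71.1, 65.7 and 63.3 FPKM in LPS libraries and 149, 147 and 147 FPKM in control libraries, where LPS+PD was above LPS (log2 fold change 0.58 ± 0.04, limma adjusted p = 6e-06). Of the 3 sestrins, stress-induced inhibitors of mTORC1, SESN1 was at 4.95, 5.04 and 4.65 FPKM in LPS+PD libraries, 3.26, 3.57 and 3.52 FPKM in LPS libraries and 8.11, 7.74 and 8.31 FPKM in control libraries. SESN3 was at 8.87, 8.40 and 8.61 FPKM in LPS+PD libraries, 5.54, 4.93 and 4.94 FPKM in LPS libraries and 33.5, 31.5 and 33.9 FPKM in control libraries. SESN2 was at 4.05, 4.52 and 4.62 FPKM in LPS+PD libraries, 7.16, 7.42 and 7.98 FPKM in LPS libraries and 2.79, 2.83 and 2.83 FPKM in control libraries. LPS+PD was above LPS for SESN1 (log2 fold change 0.40 ± 0.05, limma adjusted p = 0.000207) and SESN3 (log2 fold change 0.65 ± 0.05, limma adjusted p = 1.13e-05), and below it for SESN2 (log2 fold change -0.66 ± 0.06, limma adjusted p = 2.29e-05).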
